A study of Mus musculus with 10 samples.

Results

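Integrins are heterodimeric cell surface receptors for the extracellular matrix and for other cells, and laminins are the heterotrimeric matrix proteins of basement membranes that many integrins bind. The genes of both families were taken by their symbols, integrin alpha and beta subunits (Itga and Itgb) and laminin alpha, beta and gamma chains (Lama, Lamb and Lamc), without the integrin-binding proteins named after them. This gave 38 genes of 24525 in the deposited table, 27 integrin subunits and 11 laminin chains, of which 37 genes, all the integrins and 10 laminin chains, are described. Of the 37, 31 reached the mean of 1 FPKM over all libraries that was asked of a gene before testing, and 6 did not. FPKM is the number of sequenced fragments scaled to transcript length and to the library's total, so levels of different genes can be compared.

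RNA selected for poly(A) tails was sequenced from 5 tumours of the colon and rectum (CRC) and from 5 pieces of tissue beside such tumours, taken from male C57BL/6 mice (C57BL/6N in the growth protocol). Both groups come from mice given azoxymethane (AOM), a mutagen, at 12.5 mg/kg at 7 weeks of age, then dextran sulfate sodium (DSS), an agent toxic to the epithelium of the colon, in 3 cycles of 5 days at 2% and 16 days on water. All tissue is labelled as 10 weeks after AOM. The adjacent tissue was thus exposed to both agents, no library is labelled as from an untreated mouse, and no engineered allele is labelled. The source label gives all 10 libraries the same mouse number, against several mice in the design text, and p-values therefore measure only how far these samples differ, which may be technical. All libraries are of whole tissue, in which fewer cells of a type and less RNA per cell cannot be told apart.

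In the gut, the epithelium rests on a basement membrane in which laminins form a sheet joined to type IV collagen by nidogen and perlecan. A laminin is 1 alpha, 1 beta and 1 gamma chain: alpha5 with beta1 and gamma1 is the common laminin of adult epithelia and vessels, alpha4 is found in vessels, alpha2 in muscle, alpha1 in embryonic tissue, and alpha3 with beta3 anchors epithelia through hemidesmosomes. Integrin alpha3 pairs with beta1, alpha6 with beta1 or beta4, and alpha6 with beta4 is the hemidesmosome receptor. The integrins of beta2 and beta7 are those of leukocytes.

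Both groups hold colon epithelium: the 9 genes fixed as markers of its identity, among them Cdx2 and Muc2, were all detected, with a list mean on the log2(FPKM + 1) scale of 7.92 to 8.52 in adjacent libraries and 3.59 to 5.72 in tumours. That list fell in all 9 of its genes. Tumours 2 and 4, at 5.72 and 5.42, lay above the other tumours, at 3.59 to 3.67. The table held 462009 to 484712 FPKM per library, and the steps between its low values gave a rough depth of 20800000 to 26400000 fragments per library. Of 13016 genes tested, 76.5% passed, 57.2% higher in tumours and 19.3% lower (limma, Benjamini-Hochberg adjusted p under 0.05). The median log2 change of the genes tested was 0.35, so changes below are to be read against that shift. With each library's median subtracted, 67.7% passed, 34.5% higher and 33.3% lower.

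The tested genes of both families were mostly higher in tumours. Of 22 integrin subunits tested, 16 rose, 3 fell and 3 did not pass, with a median log2 change of 0.88. Of 9 laminin chains tested, 7 rose, 2 did not pass and none fell, and their median change was 1.87. Over all genes tested, 57.2% were higher and 19.3% lower, so most genes outside these families rose too. With medians subtracted, 14 integrins rose and 4 fell, and 6 laminins rose and 1 fell, beside 34.5% higher and 33.3% lower over all genes. The groups did not overlap, with every tumour above every adjacent library, for 15 integrins and 6 laminins, against 46.5% of all genes tested, and with every tumour below for 1 integrin, Itga7, against 14.3%. The members are few, and these shares are a description of them.

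**Figure D1:**
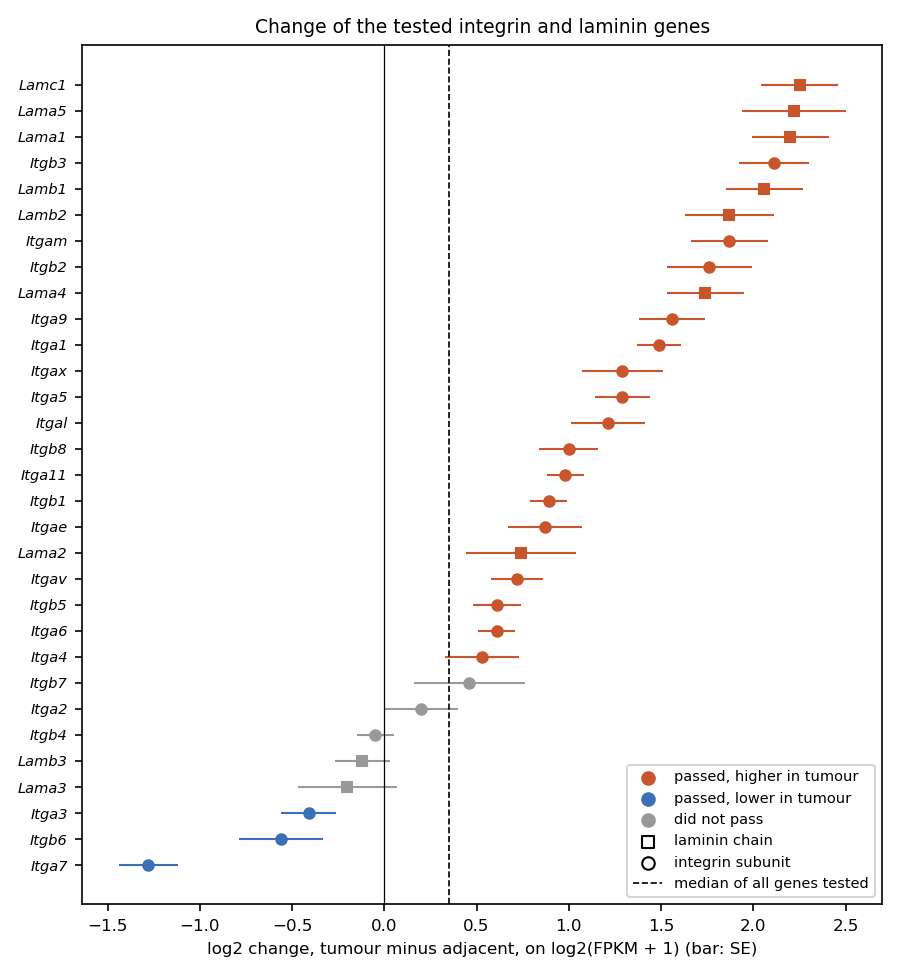
Log2 change with its SE (x axis, tumour minus adjacent, on log2(FPKM + 1)) for each of the 31 tested genes (y axis, sorted), with squares for laminin chains, circles for integrin subunits and a dashed line at 0.35, the median of all genes tested. Lamc1, Lama5 and Lama1 lie highest, and Itga7, at -1.28, lies lowest.

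The chains of the general basement membrane laminins rose together. Lama5, the alpha chain of the common epithelial laminin (chromosome 2, 180176373 to 180225859, GRCm38), rose from 10.9 ± 5.33 to 51.2 ± 10.5 FPKM (SD, n = 5 per group; log2 change 2.22, SE 0.28, limma adjusted p = 6.11e-05), which is 4.71-fold between the means. Lama5 was at 13.0, 6.55, 8.97, 6.67 and 19.2 FPKM in adjacent libraries 1 to 5 and at 59.7, 33.0, 55.0, 53.5 and 55.0 FPKM in tumours 1 to 5. Every tumour was above every adjacent library, and tumour 2 was the lowest tumour. The change was 2.36 without tumour 2.

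The beta1 and gamma1 partners of alpha5 rose as well. Lamb1 was at 14.1, 7.17, 11.7, 5.41 and 11.5 FPKM in adjacent libraries 1 to 5 and at 39.1, 51.5, 41.0, 41.6 and 40.9 FPKM in tumours 1 to 5. Lamb1, the beta1 chain (chromosome 12, 31265234 to 31329644), rose 4.29-fold between the means (log2 change 2.06, SE 0.21, limma adjusted p = 2.65e-05), and tumour 2 was the highest. Lamc1 was at 9.26, 4.61, 9.24, 4.30 and 9.87 FPKM in adjacent libraries 1 to 5 and at 36.5, 38.6, 36.9, 36.6 and 38.4 FPKM in tumours 1 to 5. Lamc1, the gamma1 chain shared by most laminins (chromosome 1, 153218922 to 153332786), rose 5.02-fold (log2 change 2.25, SE 0.21, limma adjusted p = 1.90e-05), and the SD over its 5 tumours was 1.00 FPKM. Lamb2 was at 5.73, 3.56, 6.14, 3.63 and 7.27 FPKM in adjacent libraries 1 to 5 and at 32.1, 13.1, 20.4, 21.0 and 23.6 FPKM in tumours 1 to 5. Lamb2, the beta2 chain, which can take the place of beta1, rose by 1.87 on the log2 scale (SE 0.24), with the lowest tumour, tumour 2, above the highest adjacent library.

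The alpha1, alpha2 and alpha4 chains were lower in level than alpha5. Lama1 was at 1.65, 0.65, 1.41, 0.31 and 1.27 FPKM in adjacent libraries 1 to 5 and at 8.45, 11.5, 7.62, 7.36 and 6.46 FPKM in tumours 1 to 5. Lama1, the alpha chain of the embryonic laminin, rose 7.82-fold between the means (log2 change 2.20, SE 0.21, limma adjusted p = 1.95e-05), the largest ratio of means among the 37 genes. Lama4 was at 3.24, 2.30, 3.94, 1.33 and 3.78 FPKM in adjacent libraries 1 to 5 and at 12.4, 15.1, 10.1, 11.9 and 9.24 FPKM in tumours 1 to 5. Lama4, the alpha chain of vessel walls, rose by 1.74 (SE 0.21) with no overlap. Lama2 was at 1.41, 0.64, 1.66, 0.59 and 0.62 FPKM in adjacent libraries 1 to 5 and at 1.48, 5.87, 1.12, 2.36 and 1.86 FPKM in tumours 1 to 5. Lama2, the alpha chain of muscle, passed narrowly (log2 change 0.74, SE 0.30, limma adjusted p = 0.044), and its groups overlapped, with tumour 2 far above the other tumours. The Lama2 change was 0.46 without tumour 2 (adjusted p = 0.0569). Its call also ended without any one of adjacent libraries 2, 4 and 5 and tumours 4 and 5 (adjusted p from 0.0572 to 0.0919), under median subtraction (adjusted p = 0.262) and under quantile normalization (0.338).

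The upstream sequence of Lama5 and Lamb1, chains that rose, and of Lamb3, which did not pass, is shown. These are examples picked from the 24 genes with promoters in the reference, and they carry no comparison. They are from RefSeq, GRCm38.p6, 5′ to 3′ on the gene's strand, up to 250 bases before the start of transcription and ending before the first exon from that start, and capitals mark the GC box GGGCGG or its reverse complement. The Lama5 stretch (chr2:180225860-180226109, minus strand) is 72.4% G and C with 4 such matches, that of Lamb1 (chr12:31265043-31265233, plus strand) 63.9% with 2, and that of Lamb3 (chr1:193301744-193301992, plus strand) 58.6% with 0. Over all promoters in the reference, the median was 52.4% G and C in the 250 upstream bases. The RefSeq start of Lamb3 lies inside the gene's GENCODE span, so its stretch is intronic for transcripts that start further upstream.
Lama5: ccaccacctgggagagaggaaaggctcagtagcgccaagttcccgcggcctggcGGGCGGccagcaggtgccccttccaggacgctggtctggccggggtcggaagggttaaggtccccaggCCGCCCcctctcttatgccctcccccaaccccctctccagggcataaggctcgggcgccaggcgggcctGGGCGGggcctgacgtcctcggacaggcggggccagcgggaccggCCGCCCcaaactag
Lamb1: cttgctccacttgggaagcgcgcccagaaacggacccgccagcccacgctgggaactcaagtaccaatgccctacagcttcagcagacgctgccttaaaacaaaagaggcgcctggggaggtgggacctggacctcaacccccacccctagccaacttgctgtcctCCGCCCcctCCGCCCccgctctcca
Lamb3: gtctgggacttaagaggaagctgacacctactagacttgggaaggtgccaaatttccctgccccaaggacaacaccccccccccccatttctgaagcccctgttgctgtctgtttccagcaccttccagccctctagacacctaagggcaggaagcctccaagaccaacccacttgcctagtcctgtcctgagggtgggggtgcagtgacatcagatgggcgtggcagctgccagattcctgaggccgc
Promoters were found for 24 of the 37 genes, 27 promoters in all. A GC box lay in the 250 upstream bases of 33.3% of them, against 32.7% of 32851 promoters in the reference. The genes with one were Itga4, Itga5, Itgam, Itgb1, Itgb5, Lama5 and Lamb1, which rose, and Itga3, which fell. The part of these motifs in the changes was not tested. The AP-1 motif TGANTCA lay in 3.7%, that of Itgax alone, against 6.75%, and the TCF/LEF motif CTTTGAT in 0, against 3.21%. Both strands were searched, and the AP-1 and TCF/LEF motifs can overlap each other.

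The alpha3 and beta3 chains did not follow. Lamb3 was at 75.9, 93.3, 59.6, 68.8 and 99.4 FPKM in adjacent libraries 1 to 5 and at 79.0, 83.7, 68.5, 72.0 and 57.8 FPKM in tumours 1 to 5. Lamb3, the beta3 chain (chromosome 1, 193207699 to 193343878), was the most abundant laminin mRNA in both groups, and its groups overlapped (log2 change -0.12, SE 0.15, limma adjusted p = 0.467). Lama3 was at 16.9, 25.8, 15.5, 13.0 and 32.7 FPKM in adjacent libraries 1 to 5 and at 14.9, 26.4, 16.9, 18.2 and 11.4 FPKM in tumours 1 to 5. Lama3, the alpha3 chain, was highest in adjacent library 5 and overlapped as well (log2 change -0.20, SE 0.27, limma adjusted p = 0.507). With medians subtracted, Lamb3 fell (log2 change -0.45, adjusted p = 0.0292).

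**Figure D2:**
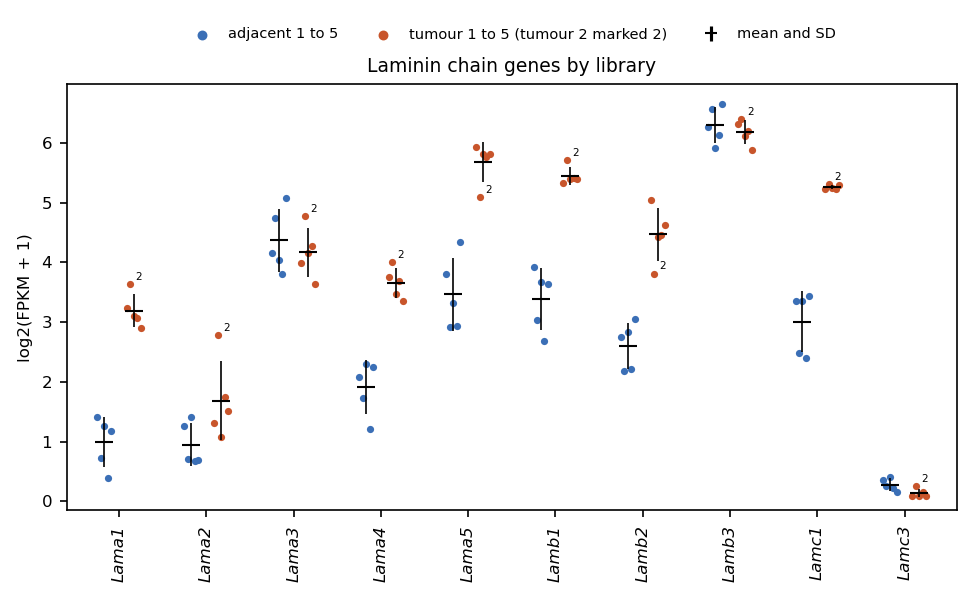
Level of 10 laminin chain genes (x axis) in each library as log2(FPKM + 1) (y axis), with adjacent libraries in blue, tumours in orange, and the mean and SD of each group in black. Tumours lie above adjacent libraries for Lama1, Lama4, Lama5, Lamb1, Lamb2 and Lamc1, while Lama2, Lama3, Lamb3 and Lamc3 overlap. Lamc3, below the filter, is at 0.11 to 0.33 FPKM in adjacent libraries and 0.06 to 0.20 FPKM in tumours.

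The make-up of the alpha and beta chain mRNA differed between the groups. As a share of the summed FPKM of the 5 alpha chains, Lama3 went from 56.8% ± 9.85 to 19.2% ± 5.85 (SD, n = 5 per group), and Lama5 from 29.3% ± 6.76 to 56.2% ± 11.7. Lama3 was the leading alpha chain in every adjacent library, at 46.8% to 71.7%, and Lama5 in every tumour, at 35.9% in tumour 2 and 57.3% to 65.5% in the others. Lamb3 went from 83.7% ± 5.55 to 52.5% ± 3.30 of the beta chains and Lamb1 from 10.7% ± 4.05 to 31.3% ± 3.33. The summed FPKM of the alpha chains was 21.9 to 57.6 in adjacent libraries and 84.1 to 96.9 in tumours. These shares are a description and were not tested.

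**Figure D3:**
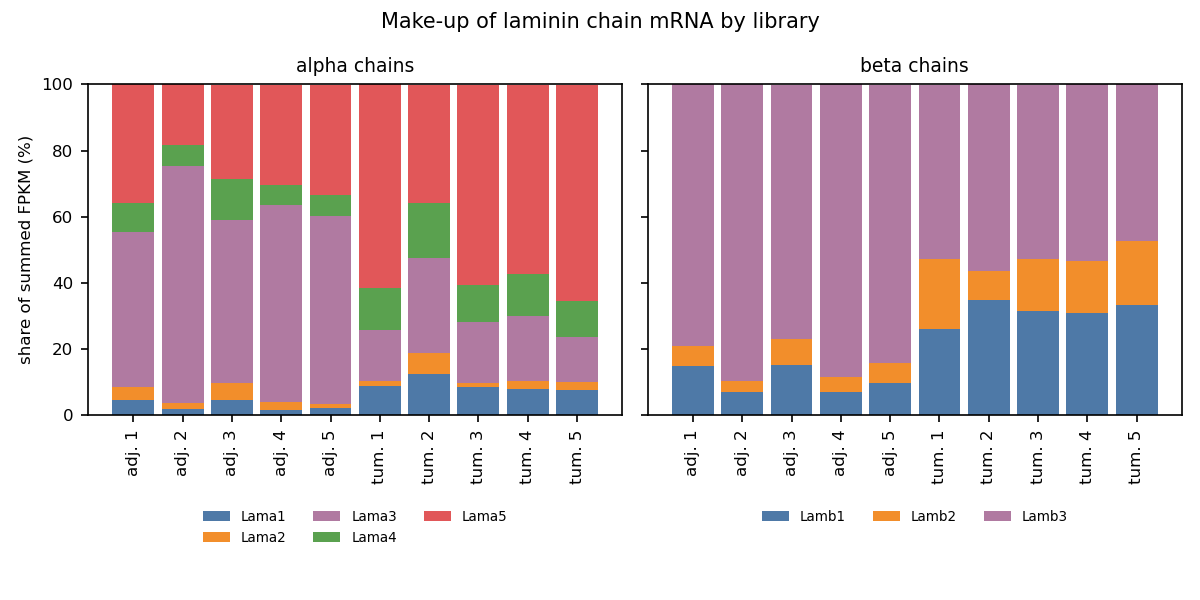
Share of the summed FPKM (y axis, %) taken by each laminin alpha and beta chain in each of the 10 libraries (x axis). Lama3 leads the alpha chains in the adjacent libraries and Lama5 in the tumours, and Lamb3 takes less in every tumour than in any adjacent library.

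Pairs of genes were also compared within each library, which takes out scaling between libraries except for low genes, where the added 1 FPKM counts. The log2 ratio of Lamb3 to Lamb1 was 2.25 to 3.53 in adjacent libraries and 0.49 to 1.00 in tumours (difference -2.18, exact permutation adjusted p = 0.0194). Ratios are differences of log2(FPKM + 1), and 22 of them were tested with two-sided exact permutation tests adjusted over the 22. The smallest p that 5 against 5 allows is 0.00794. With 1 library left out, fewer arrangements are possible and the smallest p is larger. A call can then end while the difference stays similar. Of the 20 ratios described, 12 passed, 8 higher and 4 lower in tumours.

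The integrin subunits that bind laminins went in different directions. Itga6 was at 60.6, 63.2, 60.3, 62.8 and 70.2 FPKM in adjacent libraries 1 to 5 and at 126, 89.1, 97.5, 90.2 and 86.2 FPKM in tumours 1 to 5. Itga6, the alpha6 subunit (chromosome 2, 71745616 to 71858416), rose 1.54-fold between the means (log2 change 0.61, SE 0.10, limma adjusted p = 0.000332), with tumour 1 the highest and no overlap. Itgb4 was at 63.9, 80.4, 60.5, 65.0 and 83.4 FPKM in adjacent libraries 1 to 5 and at 68.0, 72.9, 59.0, 72.0 and 66.8 FPKM in tumours 1 to 5. Itgb4, its hemidesmosome partner beta4 (chromosome 11, 115974709 to 116008412), overlapped between the groups (log2 change -0.05, SE 0.10, limma adjusted p = 0.661), and fell with medians subtracted (log2 change -0.38, adjusted p = 0.0151). Itga3 was at 50.8, 57.8, 48.7, 54.8 and 55.2 FPKM in adjacent libraries 1 to 5 and at 37.2, 60.0, 32.1, 43.0 and 33.4 FPKM in tumours 1 to 5. Itga3, the alpha3 subunit, fell by 0.41 on the log2 scale (SE 0.15, limma adjusted p = 0.0293), although tumour 2 was above every adjacent library. The Itga3 change was -0.55 without tumour 2 (adjusted p = 0.000335), and leaving out any one of adjacent libraries 2, 4 and 5 and tumours 1, 3 and 5 ended the call (adjusted p from 0.0545 to 0.0724).

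The lowest change of any tested integrin or laminin was that of Itga7. Itga7 was at 5.57, 6.31, 5.74, 6.15 and 8.62 FPKM in adjacent libraries 1 to 5 and at 1.78, 3.20, 1.28, 2.06 and 2.22 FPKM in tumours 1 to 5. Itga7, a laminin-binding subunit best known in muscle (chromosome 10, 128933818 to 128958282), fell from 6.48 ± 1.23 to 2.11 ± 0.707 FPKM (log2 change -1.28, SE 0.16, limma adjusted p = 6.21e-05), with every tumour below every adjacent library. Of 8 smooth muscle markers 5 rose and none fell, and 3 rose with medians subtracted. Their list means were 2.45 to 3.83 in adjacent libraries and 3.63 to 4.34 in tumours, and their part in the change of Itga7 was not tested.

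Relative to Epcam, an epithelial adhesion molecule that itself fell (from 964 ± 78.9 to 776 ± 42.6 FPKM), Itga6 was higher in tumours, at log2 ratios of -4.07 to -3.83 in adjacent libraries and -3.24 to -2.60 in tumours (difference 0.92, exact permutation adjusted p = 0.0194). Itgb4 relative to Epcam was -3.85 to -3.58 in adjacent libraries and -3.67 to -3.35 in tumours (difference 0.26, exact permutation adjusted p = 0.0291). The Itgb4 ratio lost its call without any one of adjacent libraries 1 to 4 and tumours 1 and 4. Lama5 and Itgav were also higher against Epcam, with differences of 2.53 and 1.03 (exact permutation adjusted p = 0.0194 for each). Itga2 did not pass against Epcam (difference 0.51, exact permutation adjusted p = 0.0764), and passed without tumour 1 (difference 0.66, adjusted p = 0.0349). Neither did Itga3, Itgb6, Lama3 and Lamb3 pass against Epcam, with differences of -0.09 (SE 0.14), -0.25 (SE 0.22), 0.11 (SE 0.25) and 0.19 (SE 0.12). Of the 8 epithelial markers 7 fell and 1 rose, with list means of 9.73 to 9.95 in adjacent libraries and 8.84 to 9.50 in tumours, and their part in these results was not tested. Among those that fell, Epcam fell least (log2 change -0.31, SE 0.07), with Cdh1 next at -0.49 and Lgals4 lowest at -1.90. Krt18 rose by 0.36 (SE 0.10). Ratios to these other markers were not tested, and they can differ from those to Epcam.

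Of the other genes of the hemidesmosome that were tested, Plec and Dst fell and Cd151 rose. Col17a1, also on that list, was below the filter, with a higher mean in tumours (0.852 against 0.176 FPKM). It was at 0.12 to 0.27 FPKM in adjacent libraries and 0.27 to 2.35 FPKM in tumours. Plec, plectin, which ties beta4 to keratin filaments, fell from 83.3 ± 20.7 to 44.7 ± 14.9 FPKM (log2 change -0.91, SE 0.22, limma adjusted p = 0.00306), and Dst, the gene of the bullous pemphigoid antigen, fell from 17.1 ± 1.96 to 7.05 ± 3.33 FPKM (log2 change -1.24, SE 0.22, limma adjusted p = 0.000404). Cd151, a tetraspanin partner of the laminin-binding integrins, rose from 80.1 ± 7.61 to 105 ± 9.69 FPKM (log2 change 0.38, SE 0.08, limma adjusted p = 0.00192), which was lost with medians subtracted (log2 change 0.05). Of 7 tested genes of the list, which includes Lama3, Lamb3, Itga6 and Itgb4, 2 rose and 2 fell, and with medians subtracted 1 rose and 4 fell. Genes known from squamous epithelium, where hemidesmosomes are abundant, were also measured, and all 4 that could be tested rose. Krt14 rose from 2.76 ± 1.30 to 14.9 ± 3.21 FPKM, Krt17 from 2.51 ± 2.67 to 18.6 ± 9.64 FPKM, Krt6a from 0.904 ± 0.359 to 5.02 ± 2.78 FPKM and Krt13 from 2.32 ± 0.83 to 6.53 ± 3.65 FPKM. The squamous genes Krt5, with means of 0.004 and 0.008 FPKM, and Trp63, with 0.01 FPKM in each group, were below the filter. The list mean was 0.63 to 1.28 in adjacent libraries and 1.85 to 2.21 in tumours, and the part of such cells in these results was not tested.

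**Figure D4:**
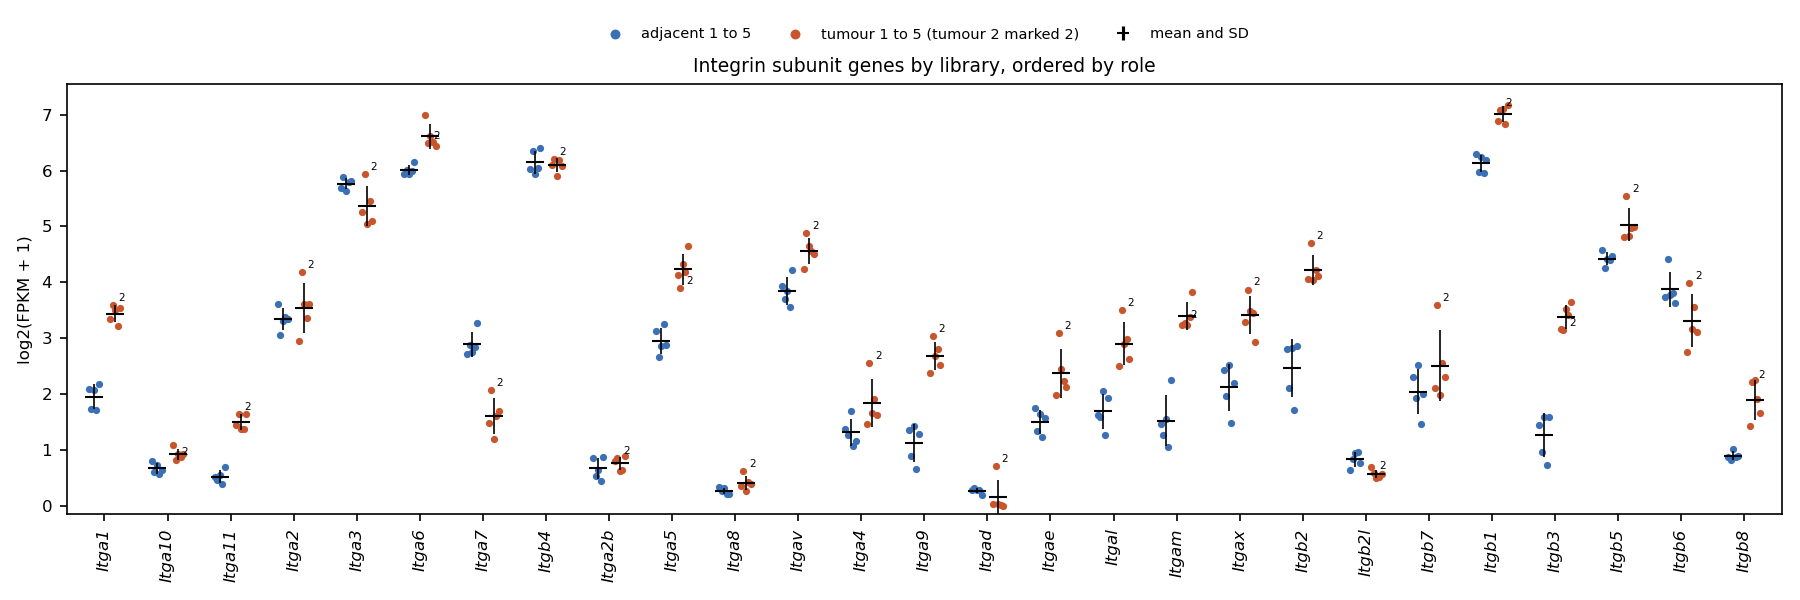
Level of each integrin subunit gene (x axis, ordered by role) in each library as log2(FPKM + 1) (y axis), with adjacent libraries in blue, tumours in orange (tumour 2 marked) and the mean and SD of each group in black. Itgb1, Itga6, Itgb4 and Itga3 are the most abundant, Itgb3 has the highest change among the integrins, and tumour 2 lies above the other tumours for Itgb2, Itgb5 and Itgb7.

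Among the collagen receptors, which pair with beta1, alpha1 and alpha11 rose. Itga1, the subunit for type IV collagen, rose from 2.91 ± 0.575 to 9.90 ± 1.13 FPKM (log2 change 1.49, SE 0.12, limma adjusted p = 1.40e-05), and Itga11, a fibroblast receptor for fibrillar collagen, rose from 0.438 ± 0.114 to 1.83 ± 0.271 FPKM (log2 change 0.98, SE 0.10, limma adjusted p = 2.71e-05). The level of Itga11 relative to Col1a1, a chain of type I collagen, was lower in tumours, at log2 ratios of -4.25 to -3.07 in adjacent libraries and -6.10 to -5.40 in tumours (difference -2.02, exact permutation adjusted p = 0.0194). Since Itga11 was under 1 FPKM in adjacent libraries, the size of that difference depends on the pseudocount, and it was -1.21 with a pseudocount of 0.1 (exact permutation adjusted p = 0.0194). Col1a1 itself rose from 19.9 ± 8.87 to 153 ± 17.7 FPKM. Itga2 was at 11.3, 7.34, 8.93, 9.43 and 9.15 FPKM in adjacent libraries 1 to 5 and at 6.68, 17.2, 11.3, 9.29 and 11.2 FPKM in tumours 1 to 5. Itga2, the collagen receptor of epithelia and platelets, did not pass (log2 change 0.20, SE 0.20, limma adjusted p = 0.37), with tumour 1 the lowest and tumour 2 the highest of all 10 libraries. Itga10, a cartilage receptor, was below the expression filter at 0.48 to 0.75 FPKM in adjacent libraries and 0.77 to 1.12 FPKM in tumours.

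The receptors for fibronectin, vitronectin and osteopontin, which recognise the peptide motif RGD, rose where tested, apart from beta6. Itgb3 was at 1.73, 0.94, 2.00, 0.66 and 2.02 FPKM in adjacent libraries 1 to 5 and at 7.95, 7.88, 10.4, 9.63 and 11.6 FPKM in tumours 1 to 5. Itgb3, the beta3 subunit of the vitronectin receptor (chromosome 11, 104608000 to 104670476), rose 6.46-fold between the means (log2 change 2.11, SE 0.19, limma adjusted p = 1.70e-05), the largest change of any integrin. Itga5, the fibronectin receptor alpha subunit, rose from 6.81 ± 1.30 to 18.1 ± 3.80 FPKM (log2 change 1.29, SE 0.15, limma adjusted p = 3.86e-05), and Itgav, the alpha partner of beta3, beta5, beta6 and beta8, rose from 13.6 ± 2.59 to 22.9 ± 3.78 FPKM (log2 change 0.72, SE 0.14, limma adjusted p = 0.000783). Itgb1, the shared beta subunit and the most abundant integrin mRNA in tumours, rose from 69.4 ± 7.51 to 129 ± 13.1 FPKM (log2 change 0.89, SE 0.10, limma adjusted p = 2.75e-05).

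The alphav partners beta5, beta6 and beta8 differed from each other. Itgb5 was at 22.7, 18.2, 20.3, 20.1 and 21.2 FPKM in adjacent libraries 1 to 5 and at 27.0, 45.7, 27.5, 30.6 and 30.8 FPKM in tumours 1 to 5. Itgb5 rose by 0.61 (SE 0.13, limma adjusted p = 0.00156) with tumour 2 well above the rest, and was at 0.28 with medians subtracted, where it did not pass (adjusted p = 0.0972). Itgb6 was at 12.3, 20.5, 12.6, 13.0 and 11.4 FPKM in adjacent libraries 1 to 5 and at 5.71, 14.8, 7.96, 10.8 and 7.67 FPKM in tumours 1 to 5. Itgb6, an epithelial subunit that activates latent TGF-beta, fell by 0.56 on the log2 scale (SE 0.23, limma adjusted p = 0.0416), and overlapped between groups through tumour 2. Leaving out any one of adjacent libraries 1, 2, 3 and 4 and tumours 1, 3 and 5 ended that call (adjusted p from 0.0536 to 0.0989). Itgb8, which also activates TGF-beta, rose from 0.860 ± 0.10 to 2.80 ± 0.916 FPKM (log2 change 1.00, SE 0.16, limma adjusted p = 0.000233). Itga8, which pairs with beta1, was below the filter at 0.16 to 0.53 FPKM over all libraries, as was Itga2b, the platelet subunit, at 0.36 to 0.85 FPKM. Of 3 tested platelet markers 2 rose and none fell: Pf4, also made by macrophages, rose from 4.70 ± 1.81 to 17.4 ± 2.26 FPKM, and Ppbp, a platelet chemokine, from 0.294 ± 0.252 to 2.90 ± 0.748 FPKM (log2 change 1.59, SE 0.17, limma adjusted p = 2.93e-05). Gp9, a subunit of a platelet receptor, had means of 0.088 and 0.052 FPKM. The part of platelets in these results was not tested.

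Of 6 tested leukocyte integrin subunits, 5 rose, beside 57.2% of all genes tested. Itgb2 was at 5.96, 3.30, 6.06, 2.29 and 6.27 FPKM in adjacent libraries 1 to 5 and at 15.8, 24.9, 15.4, 17.7 and 16.2 FPKM in tumours 1 to 5. Itgb2, the common beta2 subunit (chromosome 10, 77530252 to 77565708), rose 3.77-fold between the means (log2 change 1.76, SE 0.23, limma adjusted p = 8.02e-05), with no overlap and tumour 2 the highest. Itgam was at 1.76, 1.41, 1.94, 1.06 and 3.77 FPKM in adjacent libraries 1 to 5 and at 8.43, 8.70, 8.37, 9.38 and 13.2 FPKM in tumours 1 to 5. Itgam, alphaM of neutrophils and macrophages, rose by 1.87 (SE 0.21, limma adjusted p = 3.39e-05), with adjacent library 5 and tumour 5 the highest of their groups. Itgax, alphaX of dendritic cells and macrophages, rose from 3.47 ± 1.19 to 9.84 ± 2.55 FPKM (log2 change 1.29, SE 0.22, limma adjusted p = 0.000314), and Itgal, alphaL of lymphocytes and other leukocytes, rose from 2.29 ± 0.699 to 6.70 ± 2.20 FPKM (log2 change 1.21, SE 0.20, limma adjusted p = 0.000303).

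The remaining tested subunits were Itgae, Itgb7, Itga4 and Itga9, of which Itgb7 did not pass. Itgae was at 2.34, 1.51, 2.13, 1.33 and 1.95 FPKM in adjacent libraries 1 to 5 and at 2.93, 7.49, 4.44, 3.68 and 3.34 FPKM in tumours 1 to 5. Itgae, alphaE, which with beta7 binds E-cadherin on epithelium, rose by 0.87 (SE 0.20, limma adjusted p = 0.00236), with tumour 2 the highest, but did not pass with quantile normalization (log2 change 0.37, adjusted p = 0.114). Itgb7 was at 3.94, 2.78, 4.75, 1.75 and 3.01 FPKM in adjacent libraries 1 to 5 and at 3.33, 11.0, 2.96, 4.84 and 3.92 FPKM in tumours 1 to 5. Itgb7, beta7, the gut homing subunit, did not pass (log2 change 0.46, SE 0.30, limma adjusted p = 0.182), and tumours 1, 3 and 5 lay inside the adjacent range while tumour 2 was the highest. Itga4 was at 1.59, 1.40, 2.25, 1.10 and 1.22 FPKM in adjacent libraries 1 to 5 and at 1.74, 4.85, 2.15, 2.77 and 2.08 FPKM in tumours 1 to 5. Itga4, alpha4, its partner and the receptor for Vcam1, passed narrowly (log2 change 0.53, SE 0.20, limma adjusted p = 0.0355) with overlapping groups. The Itga4 change was 0.35 without tumour 2 (adjusted p = 0.0506) and 0.20 with medians subtracted (adjusted p = 0.426). It was also lost with quantile normalization and without any one of adjacent libraries 1, 2, 4 and 5 and tumour 4 (adjusted p from 0.0533 to 0.0795). Itga9 was at 1.56, 0.84, 1.70, 0.57 and 1.43 FPKM in adjacent libraries 1 to 5 and at 4.20, 7.17, 5.38, 5.95 and 4.75 FPKM in tumours 1 to 5. Itga9, the relative of alpha4 that binds tenascin C and osteopontin, rose 4.50-fold between the means (log2 change 1.56, SE 0.18, limma adjusted p = 3.44e-05) with no overlap.

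Relative to Ptprc (CD45), the surface marker of all leukocytes, which rose from 5.80 ± 2.27 to 10.8 ± 3.69 FPKM, the leukocyte subunits did not move alike. All 7 pan-leukocyte markers rose, with a median log2 change of 1.10. Ptprc, at 0.80, rose less than Laptm5 (1.37), Lcp1 (1.34), Cd53 (1.26), Coro1a (1.10) and Arhgdib (0.97), and about as much as Rac2 (0.79). Ratios to these other markers were not tested, so a rise against Ptprc need not hold against them. The log2 ratio of Itgb2 to Ptprc was -0.60 to 0.32 in adjacent libraries and 0.53 to 1.04 in tumours (difference 0.97, exact permutation adjusted p = 0.0194), and that of Itgam was -1.87 to -0.28 in adjacent libraries and -0.89 to 0.48 in tumours (difference 1.08, exact permutation adjusted p = 0.0291). Itgal was higher against Ptprc as well (difference 0.41, exact permutation adjusted p = 0.0403) and Itga4 lower (difference -0.27, exact permutation adjusted p = 0.0499). The Itga4 ratio was -0.14 with a pseudocount of 0.1 (exact permutation adjusted p = 0.204) and -0.31 with one of 5 (0.0537). Its call ended without any one library other than adjacent library 3, at differences of -0.29 to -0.22. With a pseudocount of 5, the Itgal and Itgam ratios were 0.13 (exact permutation adjusted p = 0.272) and 0.53 (0.116). Both calls ended without any one of adjacent libraries 1 to 4 and tumours 1, 3 and 4. The differences without those libraries were 0.33 to 0.42 for Itgal and 0.91 to 1.11 for Itgam. Itgax, Itgb7 and Itgae did not pass, with differences of 0.50 (SE 0.17), -0.33 (SE 0.17) and 0.08 (SE 0.16). Itgax passed with a pseudocount of 0.1 (adjusted p = 0.0499) or without tumour 5, and Itgb7 with a pseudocount of 5 (0.0476) or without tumour 2. The marker lists moved as follows on the log2(FPKM + 1) scale: neutrophils (7 of 7 rose) had list means of 1.18 to 3.15 in adjacent libraries and 3.46 to 4.55 in tumours, and macrophages and dendritic cells (8 of 8 tested rose) 2.44 to 3.59 in adjacent libraries and 4.31 to 5.11 in tumours. T cells (2 of 6 tested rose) had 1.01 to 1.51 in adjacent libraries and 1.37 to 2.45 in tumours, and B and plasma cells (2 of 6 tested fell) 2.36 to 4.17 in adjacent libraries and 1.21 to 3.30 in tumours. Tumour 2 had the highest tumour mean of the pan-leukocyte, T cell and B cell lists, at 4.81, 2.45 and 3.30. The part of these cells in the changes of the integrins was not tested.

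**Figure D5:**
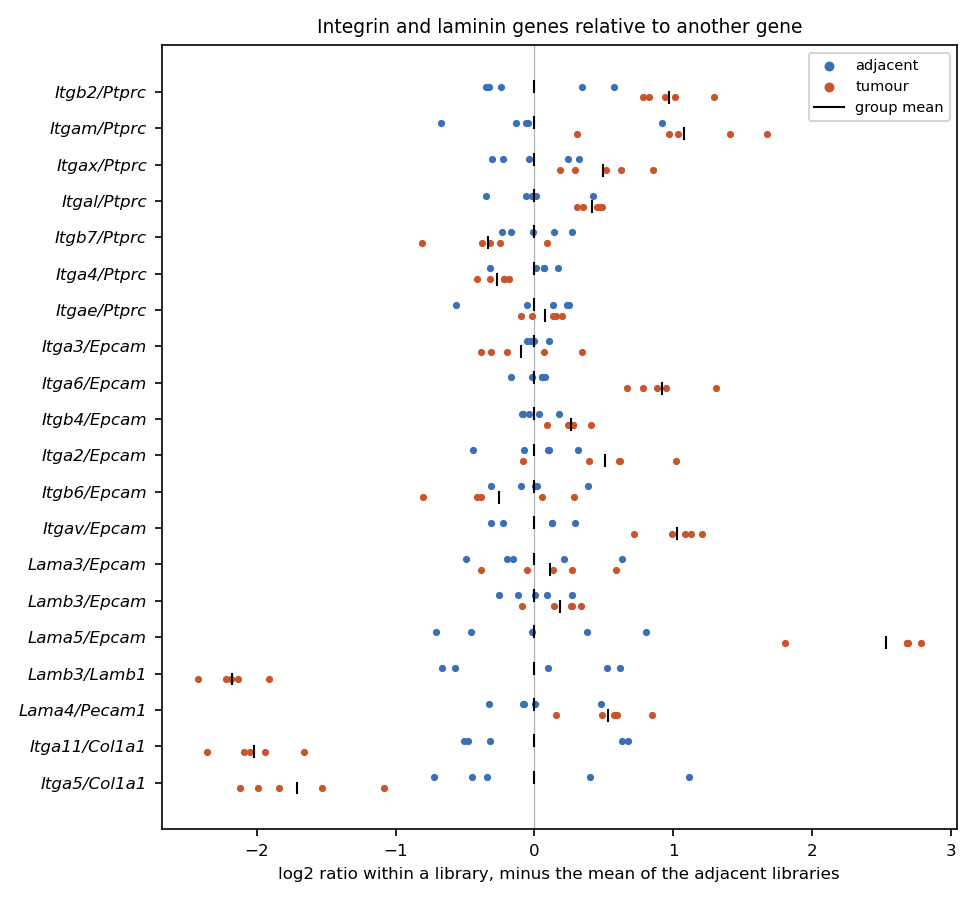
Log2 ratio of an integrin or laminin gene to another gene within each library, minus the mean of the adjacent libraries (x axis), for 20 ratios (y axis), with adjacent libraries in blue, tumours in orange and group means as black ticks. Lama5 against Epcam moves furthest up, and on this scale Lamb3 against Lamb1 and Itga11 against Col1a1 furthest down, though with a pseudocount of 0.1 Itga11 against Col1a1, at -1.21, lies above Itga5 against Col1a1, at -1.67.

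The leukocyte subunits Itgad and Itgb2l, and the laminin chain Lamc3, were below the filter. Itgad was at 0.14 to 0.24 FPKM in adjacent libraries, at 0.63 FPKM in tumour 2 and at 0 to 0.02 FPKM in the other tumours. Itgb2l, a relative of beta2, had means of 0.778 and 0.484 FPKM, and Lamc3, the gamma3 chain, of 0.218 and 0.104 FPKM.

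The partners of laminins in the basement membrane rose with the alpha5, beta1 and gamma1 chains. Of 10 tested partners 9 rose, none fell, and the median log2 change was 1.86. Col4a1 and Col4a2, the main chains of type IV collagen, rose from 24.9 ± 10.4 to 153 ± 7.76 FPKM (log2 change 2.68, SE 0.26, limma adjusted p = 2.28e-05) and from 15.8 ± 6.14 to 98.8 ± 1.49 FPKM (log2 change 2.66, SE 0.24, limma adjusted p = 1.90e-05). Of 20 tested integrin ligands other than laminins, 18 rose and 1 fell. Spp1, osteopontin, and Fn1, fibronectin, rose by 3.69 (SE 0.50) and 3.02 (SE 0.34), and Cdh1, E-cadherin, the ligand of alphaE with beta7, fell from 395 ± 30.9 to 282 ± 32.7 FPKM (log2 change -0.49, SE 0.09, limma adjusted p = 0.000532).

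Of 36 genes of integrin activation and focal adhesions 22 rose and 5 fell, with a median of 0.45, near the 0.35 of all genes; with medians subtracted 16 rose and 10 fell. Flna, filamin A, which binds beta tails and actin, rose from 18.4 ± 6.82 to 87.8 ± 12.6 FPKM (log2 change 2.27, SE 0.24, limma adjusted p = 3.05e-05), and Fermt2, kindlin-2, which activates integrins, rose from 3.17 ± 1.18 to 15.3 ± 1.70 FPKM (log2 change 2.01, SE 0.18, limma adjusted p = 1.86e-05). Ptk2b, the relative of focal adhesion kinase, fell from 29.7 ± 3.60 to 14.6 ± 4.46 FPKM (log2 change -1.01, SE 0.17, limma adjusted p = 0.00027), and Actn4, an actinin, fell from 295 ± 28.1 to 229 ± 30.2 FPKM (log2 change -0.37, SE 0.10, limma adjusted p = 0.00699). Of 12 other laminin receptors and tetraspanins 6 rose and 2 fell, and with medians subtracted 3 rose and 6 fell. Bcam, a receptor for laminin alpha5, rose from 7.57 ± 3.24 to 36.9 ± 15.6 FPKM (log2 change 2.11, SE 0.35, limma adjusted p = 0.000306), and the tetraspanin gene Cd81 rose by 1.00 (SE 0.16), while the tetraspanin genes Cd82 and Cd63 fell by 0.82 (SE 0.14) and 0.39 (SE 0.09) on the log2 scale.

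Markers of fibroblasts and endothelial cells also differed, and which cells made the laminin mRNA was not measured. Fibroblast markers (8 of 8 tested rose) had list means of 2.95 to 3.92 in adjacent libraries and 4.92 to 5.65 in tumours. Fap, the fibroblast marker below the filter, was lower in tumours, at 0.91 to 1.18 FPKM in adjacent libraries and 0.23 to 0.69 FPKM in tumours. Endothelial markers (7 of 7 rose) had list means of 1.51 to 2.30 in adjacent libraries and 2.95 to 3.50 in tumours. Lama4 was higher relative to Pecam1, the endothelial adhesion molecule, at log2 ratios of -1.29 to -0.49 in adjacent libraries and -0.81 to -0.12 in tumours (difference 0.53, exact permutation adjusted p = 0.0291). The Lama4 ratio was 0.20 with a pseudocount of 5 (exact permutation adjusted p = 0.185). Its call also ended without any one of adjacent libraries 1 to 4 and tumours 1, 3 and 4, at differences of 0.45 to 0.54. Itga5 was lower relative to Col1a1 (difference -1.71, exact permutation adjusted p = 0.0194). Glial markers were at list means of at most 0.60, with none of 6 tested, and those of mesothelium at most 0.68. The part of these cells in the laminin changes was not tested.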

How the data were processed

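Gene expression was measured by RNA sequencing in 5 tumours and 5 adjacent samples, grouped by the sample type label. After oligo-dT selection the TruSeq RNA v2 kit was used, per the labels' protocols. The authors deposited 1 table of FPKM per gene and library. The build mm10 and the tools RSEM 1.2.15, Salmon 0.8.2, Cufflinks 2.2.1 and TopHat2 2.1.0 are listed per the submitters' processing notes, with no word on which made the table. The treatment of reads shared by similar genes is not stated there. Since FPKM is scaled to the library total, a gene's level is relative to the others.

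One line of text in the table was left out. limma 3.58.1 in R 4.3.3 compared tumour with adjacent on log2(FPKM + 1), with no other term, variances moderated with an intensity trend and robustly, for 13016 genes averaging 1 FPKM or more. Two-sided p-values were adjusted by Benjamini-Hochberg over all genes, with a threshold of 0.05. Fold changes on this scale understate the change of low genes. The fit was tested on simulated data. Ratios within libraries were compared with exact permutation tests in scipy 1.17.1. A rough depth came from the spacing of low values in genes with a single annotated transcript, and no counting interval was computed. Alternatives were median subtraction, quantile normalization, pseudocounts of 0.1 and 5, no filter or a filter of 5 FPKM, no trend, a replicate block and leaving out each library. The members and gene lists were chosen with earlier results of these data known. Values in every library were given for tested genes with a log2 change of at least 1.5 or at most -0.5, for those that did not pass or lost a call in an alternative, and for Lama3, Lamb3, Itga6 and Itgb4, and other members by mean or range. Of each list of other genes, at most 2 that rose most and 2 that fell most were named, and a few markers were added after their values were seen. Protein sequences were not used here. One member gene and its 2 ratios are not reported here, though they entered the fit and the adjustment.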

Additional observations from a re-analysis of the deposited data

Results flagged for a closer look

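Of 130 groups of 5 values screened, 15 had a library whose gap to its nearest neighbour took more than 0.71 of the group's range, where chance gives about 1 in 20 groups. Of these, 11 were of tumour 2 (several are measures of the same gene). It was the highest tumour for Itgb2 (24.89 against 15.4 to 17.66 FPKM in the others), Itgb5 (45.74 against 27.01 to 30.84), Itgb7 (11.03 against 2.96 to 4.84), Itgad (0.63 against 0 to 0.02), Lama2 (5.87 against 1.12 to 2.36) and Lamb1 (51.55 against 39.13 to 41.58). It was the lowest for Lama5 (32.99 against 53.46 to 59.68 FPKM), and for the log2 ratio of Lama5 to Epcam (-4.65 against -3.77 to -3.67). Its shares of the laminin alpha chains were 12.5% for Lama1, 6.39% for Lama2 and 35.9% for Lama5. The pan-leukocyte list mean of tumour 2, 4.81, and its fibroblast list mean, 5.65, were also the highest, and the part of these cells was not tested. Tumour 1 stood apart for Itga6 (126.48 against 86.22 to 97.52 FPKM) and tumour 5 for Itgam (13.23 against 8.37 to 9.38). Adjacent library 5 stood apart for Itga7 (8.62 against 5.57 to 6.31 FPKM) and adjacent library 2 for Itgb6 (20.47 against 11.43 to 13.04).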

How the results depend on the processing

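Most counts kept to within 1.5 times of those reported. Over all genes, 7442 rose and 2509 fell, against 4486 and 4329 with medians subtracted and 4759 and 3934 with quantile normalization, which took the share of calls that are higher in tumours from 74.8% to 50.9% and 54.7%. With a filter of 5 FPKM, 10 integrins rose, since fewer genes were tested. The count of laminins that fell was 0, and 1 with medians subtracted (Lamb3) and 1 with no filter (Lamc3, which is below the filter otherwise). Without 1 library, 15 to 16 integrins and 6 to 7 laminins rose and 1 to 3 integrins fell. That last count was 1 without adjacent library 2 or 4 or tumour 1, 3 or 5, since the calls of Itga3 and Itgb6 were lost. The ratios past the threshold numbered 12, and 7 to 12 without 1 library, with 7 without adjacent library 1, 2 or 4 or tumour 4. Without 1 library the smallest p of the permutation test is larger, so a lost call need not mean a smaller difference. The ratios of Itgam, Itgal and Itga4 to Ptprc, of Itgb4 to Epcam and of Lama4 to Pecam1 were those lost, and 9 passed with a pseudocount of 5. With a pseudocount of 0.1 the call of Itga4 to Ptprc was lost and that of Itgax to Ptprc gained, so that 12 passed. Of the genes called over the whole table, 946 changed sign with medians subtracted and 900 with quantile normalization, none of them an integrin or laminin. Of those genes, only 53 and 72 also passed with the other sign. Without both tumours 2 and 4, an alternative chosen after seeing the data, 14 integrins and 6 laminins rose and 3 integrins fell. The Lama2 call was also lost with no filter (adjusted p = 0.058) and with a pseudocount of 5 (0.068), and that of Itgb6 with no filter (0.0554). The replicate number as a block gave 15 integrins and 6 laminins higher, with Itga4 (adjusted p = 0.0578) and Lama2 (0.0954) lost, and 7534 genes higher and 2533 lower in all. The numbers were not taken as pairs, though the design text speaks of matched tissues. Deviations of like-numbered libraries correlated at 0.022 to 0.422 across genes, not over 0.1 in each pair. Those of unlike-numbered libraries correlated at -0.442 to 0.322. Adjacent libraries 1 and 3 correlated best with tumour 2, and adjacent library 2 with tumour 4 (0.322, against 0.321 with tumour 2). Adjacent libraries 4 and 5 correlated best with the tumours of their own number. The rough depth of 20800000 to 26400000 fragments limits genes under the filter, such as Itgad and Lamc3.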
